A study of Mus musculus with 9 samples.

Results

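Microtubules are hollow polymers of alpha and beta tubulin, and cells build very different structures from them. Dividing progenitors use them, with a set of kinesin motors, to assemble the spindle, whereas newborn neurons use them to extend axons and carry cargo along them. Neurons therefore switch on particular beta tubulins, the doublecortin and stathmin families, the microtubule-associated proteins Map1b, Map2 and Mapt (tau), and the transport kinesins of the Kif1 and Kif5 families. The genes described here are the alpha, beta and gamma tubulins with the gamma tubulin complex, the numbered kinesins, the stathmins, the classical microtubule-associated proteins and doublecortins, cytoplasmic dynein and dynactin. They were picked by a rule on gene symbols, and the rule was drawn up with earlier results of these data known. The deposited tables list 72 such genes, all 72 in both tables, of 11848 genes listed in both. By known role 20 of them were set apart as neuronal and 11 as mitotic kinesins. Of the names on these lists, Tubb3 and Dync1i1 were not analysed here.

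The RNA came from E12.5 retinas of CD-1 mouse embryos, in 3 groups of 3 samples. The group labelled HET carried the Neurog2GFP/+ genotype, the group labelled MUT was Neurog2GFP/GFP, and the group labelled KI was Neurog2GFP/Mash1KI. All groups thus carried at least 1 GFP allele of Neurog2, a proneural transcription factor, and the KI group carried in addition an allele labelled as a knock-in of Mash1, another proneural factor. There is no wild-type group, and the tissue was dissociated pairs of GFP-positive optic cups with no cell sort named. The authors' tables give 1 RPKM value (reads per length of transcript, scaled to the reads mapped) for each group and transcript, and no sample has values of its own. The spread between replicates is therefore known only through the Cuffdiff test of the authors' deposited tables, and depth per sample is unknown. A gene's level below is the sum of RPKM over its listed transcripts. A gene was called changed where any of its transcripts had a deposited q of 0.05 or less, and ratios are on the log2 scale without a pseudocount. The deposited test is of single transcripts, so a summed level has no test of its own. A p or q beside a summed level is the lowest among the gene's transcripts, unless a transcript is named. Separate litters are not stated for the samples, so the tests cover the spread among them, which may be partly technical.

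Neurog2 itself was at 30.2 RPKM in HET and 36.2 RPKM in MUT, and at 35.5 RPKM in MUT and 112 RPKM in KI in the other table. Neurog2 RNA was thus not lower in the group labelled MUT (q = 0.993 in the authors' deposited table), and it rose in the group labelled KI (q = 0.0104 in the authors' deposited table). It does not check the genotypes, and HET, MUT and KI below mean the retinas labelled so. All 8 defining markers of retina were listed, between 50.6 RPKM (Rax) and 1027 RPKM (Sfrp2) in HET. Sex-linked RNA also differed in value between the groups, with no such gene called. The 4 listed Y-linked genes were at 3.48 to 21.9 RPKM in HET, at 0 to 0.0168 RPKM in MUT (first table) and at 8.81 to 28.6 RPKM in KI, and Xist was at 184 RPKM in HET and 505 RPKM in MUT (first table) and at 174 RPKM in KI. Sex and genotype cannot be told apart here, and among the members Dcx and Kif4 lie on the X chromosome.

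Several tubulin genes are close copies, which bears on their values. In coding sequence, Tubb2a and Tubb2b were 96.5% identical, and Tuba1a and Tuba1b 98.3%, whereas Tubb5 was 84.6% identical to Tubb2a, its closest relative among the listed genes. Beta tubulin isotypes are known to differ most in the tail at the end of the protein, outside the polymer's core. The last 60 coding bases are shown to let a reader see which copies can be told apart there. They are from GENCODE transcripts on mm10, before the stop codon, and capitals mark bases that differ from Tubb2b, or have no counterpart in it, in a global alignment of the coding sequences.
Tubb2b: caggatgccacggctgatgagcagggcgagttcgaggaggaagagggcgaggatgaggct
Tubb2a: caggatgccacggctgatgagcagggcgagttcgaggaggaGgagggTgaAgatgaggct
Tubb4a: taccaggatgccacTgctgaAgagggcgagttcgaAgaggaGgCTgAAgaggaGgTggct
Tubb4b: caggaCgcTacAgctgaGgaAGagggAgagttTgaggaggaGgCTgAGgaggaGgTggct
Tubb5: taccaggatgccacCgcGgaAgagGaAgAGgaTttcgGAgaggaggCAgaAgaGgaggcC
All 5 are on the minus strand, at chr13:34127474-34127533 (Tubb2b), chr13:34074471-34074530 (Tubb2a), chr17:57080693-57080752 (Tubb4a), chr2:25222311-25222370 (Tubb4b) and chr17:35834985-35835044 (Tubb5). Of these 60 bases 3 are in capitals in Tubb2a, 10 in Tubb4a, and 15 each in Tubb4b and Tubb5. Over the whole annotated transcript, 45.6% of the 50-base windows of Tubb2a and 33.4% of those of Tubb2b also occurred in another listed tubulin. For Tuba1a, Tuba1b and Tuba1c the shares were 52.0%, 64.6% and 59.8%, and for the other listed alpha and beta tubulins they were at most 0.184%. The read length is not given in the sources used here, so the split of reads within the Tubb2 pair and within the Tuba1 trio is uncertain.

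The first comparison sets MUT, with GFP at both Neurog2 alleles, against HET, with GFP at 1. The members called as changed were genes of the neuronal list, and they fell. Of the 72 members 7 were called lower and none higher, where 1.09% of all 12247 genes were called lower, 0.245% higher and 1.34% in either direction. All 7 are among the 20 neuronal members, and none of the 11 mitotic kinesins was called. On a narrower neuronal list, without Tubb2a, Tubb2b and others that other cells also express, 5 of 14 were called. The called members were Stmn2, Stmn3, Mapt, Map2, Kif5a, Tubb2a and Tubb2b, each with the lowest q that the authors' deposited table holds, 0.0109. Their loci in the authors' deposited table (mm10) are chr3:8509360-8561606 (Stmn2), chr2:181306459-181314500 (Stmn3), chr11:104231390-104332090 (Mapt), chr1:66175273-66442583 (Map2), chr10:127225696-127263363 (Kif5a), chr13:34074301-34078008 (Tubb2a) and chr13:34127008-34130354 (Tubb2b). The rule for the members and the list of neuronal members were drawn up with earlier results of these data known. They are therefore no independent evidence of a share or a direction.

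Among the tubulins of neurons, both Tubb2 genes fell. Tubb2b, a beta tubulin of young neurons that progenitors also express, fell 1.86-fold, from 82.8 to 44.6 RPKM. Its copy Tubb2a fell from 19.4 to 10.4 RPKM. Both log2 ratios were -0.89, and the reads of the pair cannot be fully told apart. Tuba1a, the main alpha tubulin of neurons, was the most abundant neuronal member, at 1057 RPKM in HET and 803 RPKM in MUT. Neither of its 2 transcripts passed (lowest Cuffdiff p = 0.2445, q = 0.993 in the authors' deposited table). Tubb4a was at 58.5 and 49.2 RPKM and did not pass either (q = 0.993 in the authors' deposited table).

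Among the stathmins, which bind free tubulin and destabilise microtubules, the 3 neuronal members were all lower, and 2 were called. Stmn2, found in growth cones, fell from 268 RPKM in HET to 129 RPKM in MUT (log2 ratio -1.05). Stmn3 fell from 40.7 to 22.4 RPKM, a ratio of -0.86. Stmn4 was at 40.2 and 24.4 RPKM, a ratio of -0.72, which missed the threshold (p = 0.00115, q = 0.128 in the authors' deposited table). Stmn1, which dividing cells express as well, was the most abundant of all members, at 1287 RPKM in HET and 1167 RPKM in MUT, a ratio of -0.14 (q = 0.993 in the authors' deposited table).

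The microtubule-associated proteins bundle and stabilise the lattice. Mapt, which encodes the axonal protein tau, fell from 6.69 to 2.76 RPKM, a ratio of -1.28 and the most negative of the called members. Map2, which marks dendrites and cell bodies in mature neurons, fell from 47.7 to 33.1 RPKM, a ratio of -0.53. The call of Map2 came from its most abundant transcript, at 25.9 and 13.8 RPKM, whereas another went from 1.48 to 8.40 RPKM without passing (q = 0.993 in the authors' deposited table). Map1b, an early axonal protein and the most abundant gene of this kind, was at 335 RPKM in HET and 222 RPKM in MUT, a ratio of -0.59 (p = 0.01385, q = 0.556 in the authors' deposited table). Map6 was at 24.2 and 19.6 RPKM and Map1a at 14.6 and 12.1 RPKM. Neither passed (q of 0.156 and 0.993 in the authors' deposited table).

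Dcx, which encodes doublecortin, the classical protein of migrating young neurons, had the most negative summed ratio of all 72 members and was not called. It lies on the X chromosome (mm10, chrX:143855842-143933311) and is listed as 6 transcripts. Their sum was 47.2 RPKM in HET and 18.4 RPKM in MUT, a ratio of -1.36. The most abundant transcript went from 24.4 to 1.52 RPKM with p = 0.03575 and q = 0.859 in the authors' deposited table, and another from 7.57 to 0.784 RPKM. The second in abundance was at 8.04 RPKM in HET and 8.57 RPKM in MUT. The deposited test runs on single transcripts, so the summed difference of Dcx has no test of its own. Its most abundant transcript alone, at the values above, gives a far more negative ratio than the sum. The related kinases Dclk1 and Dclk2 were at 46.3 and 12.9 RPKM in HET and at 37.7 and 11.4 RPKM in MUT, and neither passed (q = 0.921 and 0.993 in the authors' deposited table).

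**Figure D1:**
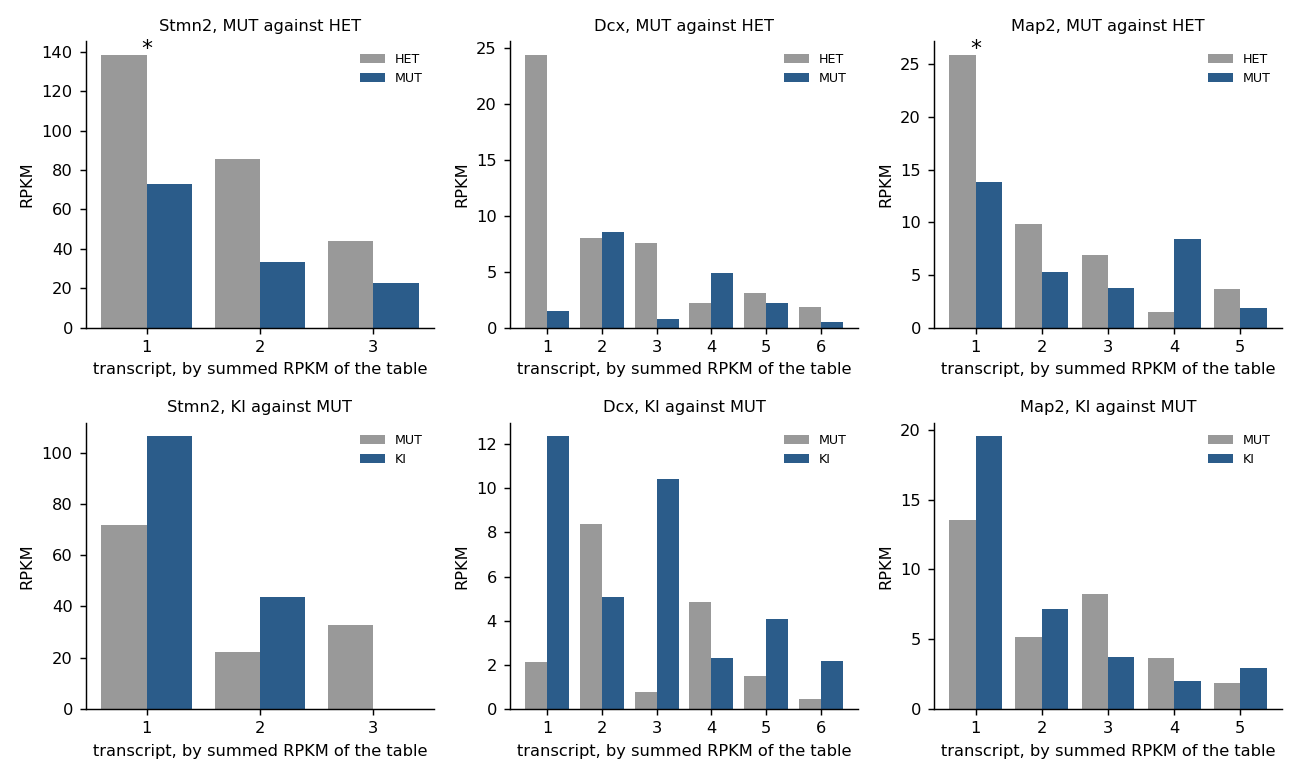
RPKM of each listed transcript of Stmn2, Dcx and Map2 (bars; grey for the first and blue for the second group of each comparison), with an asterisk where the deposited q is 0.05 or less. Transcripts are ordered by RPKM within each table, and a rank need not mark the same transcript in both tables. The called fall of Stmn2 and of Map2 rests on the first transcript of each, and the HET value of Dcx is mostly its first transcript, at 24.4 RPKM.

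Among transport motors, Kif5a, a neuronal heavy chain of conventional kinesin, fell from 10.7 to 5.60 RPKM, a ratio of -0.93. Its neuronal relative Kif5c was at 75.0 and 49.3 RPKM, a ratio of -0.60. The most abundant Kif5c transcript alone had a ratio of -1.02 and did not pass (Cuffdiff p = 0.07535, q = 0.993 in the authors' deposited table). The broadly expressed Kif5b was at 52.9 and 40.6 RPKM, a ratio of -0.38, without passing (q = 0.993 in the authors' deposited table). Its most abundant transcript alone had a ratio of -0.04. Kif1a, which carries synaptic vesicle precursors, was at 72.9 RPKM in HET and 62.6 RPKM in MUT, a ratio of -0.22. Kif21b and Kif3c had ratios of -0.53 and -0.37 and did not pass (q = 0.993 for both in the authors' deposited table).

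Across the list, all 20 neuronal members had lower summed RPKM in MUT, where 45.3% of the 12197 genes with a finite ratio did. The direction of Dclk1 depends on the sum, since its most abundant transcript alone had a ratio of 0.12. By the most abundant transcript 19 of the 20 were lower. The median log2 ratio of the summed values was -0.56, beside 0.03 for all genes, and they ranged from -1.36 (Dcx) to -0.17 (Dclk2). Of the 20, 12 had a transcript below 0.05 in the unadjusted p of the authors' deposited table, as had 10.9% of all genes. In bulk tissue, fewer neurons and less RNA of these genes per neuron cannot be told apart. The 6 genes listed as ganglion cell markers (Pou4f2, Isl1, Atoh7, Elavl4, Nefl and Nefm) were each lower too. Their sum was 636 RPKM in HET and 369 RPKM in MUT, with 3 called. Of the HET sum Atoh7 held 195 RPKM and Elavl4 162 RPKM. The 8 retinal progenitor markers were at a summed 2099.5 and 2543 RPKM with none called. The part of cell composition in the result was not tested.

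The mitotic kinesins did not share the pattern in these values. Kif11, the motor that pushes spindle poles apart, was the most abundant at 58.3 RPKM in HET and 58.1 RPKM in MUT (p = 0.977 in the authors' deposited table). Kif23, which works in the midbody during cytokinesis, was at 36.5 and 35.4 RPKM, and Kif4, a chromosome-bound motor, at 29.0 RPKM in both. Kif15, a second spindle motor, was at 37.9 and 46.0 RPKM, the highest ratio of the list at 0.28 (p = 0.0518, q = 0.975 in the authors' deposited table). Kif14 was at 14.0 and 11.7 RPKM, the lowest ratio at -0.26. The median of the 11 was -0.00, 6 were lower and 5 higher, and none had a transcript whose unadjusted Cuffdiff p in the authors' deposited table was below 0.05. The ranges of both lists overlapped, since Kif14 and Kif18a (ratio -0.24) lay below Kif1a and Dclk2. The difference between the lists was not tested.

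**Figure D2:**
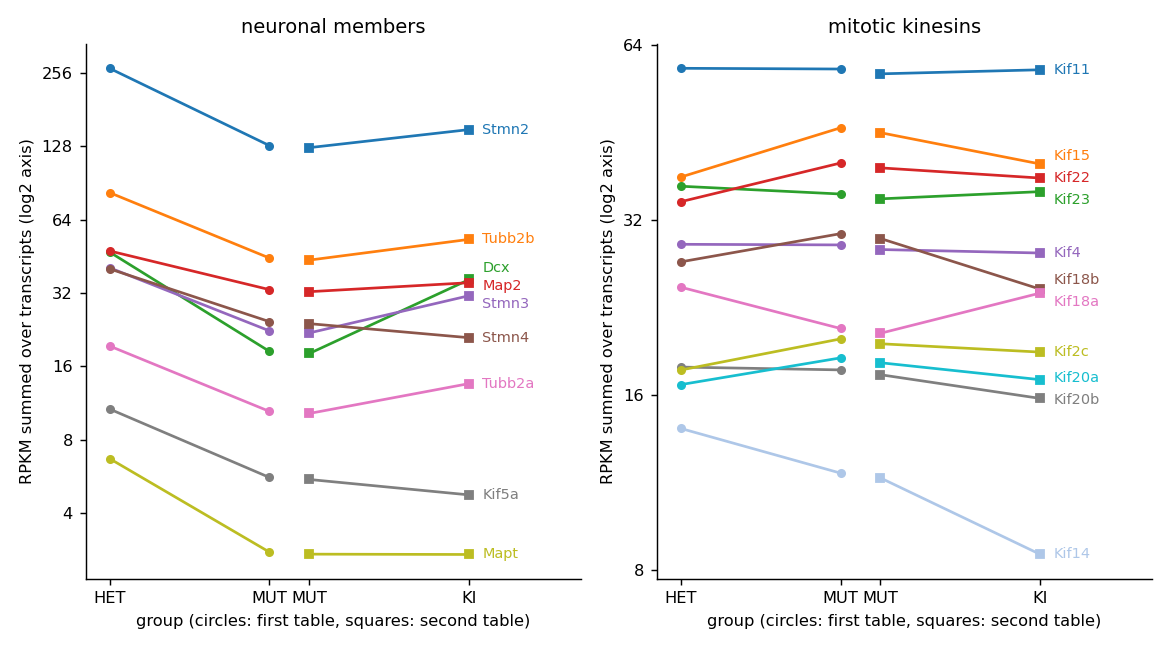
Summed RPKM (log2 axis) of the called neuronal members with Dcx and Stmn4, and of the 11 mitotic kinesins, in HET and MUT (circles, first table) and in MUT and KI (squares, second table), with 1 value per group and so no error bars. The axes of the panels cover different ranges. Stmn2 goes from 268 to 129 RPKM and Kif11 from 58.3 to 58.1 RPKM between HET and MUT.

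The remaining tubulins had higher values in MUT, without calls. All 6 other alpha and beta tubulins had higher summed RPKM in MUT, where 54.7% of all genes with a finite ratio did. Their median ratio was 0.24, and Tuba4a among them was near the floor, at 0.731 and 0.924 RPKM. Tubb4b, a broadly expressed beta tubulin, was at 179 RPKM in HET and 234 RPKM in MUT (p = 0.00865, q = 0.434 in the authors' deposited table). Tuba1c was at 52.3 and 72.3 RPKM (p = 0.0041, q = 0.284 in the authors' deposited table). Tubb5, the main beta tubulin of dividing cells, was at 1039.8 and 1079 RPKM and Tuba1b at 566 and 598 RPKM. RPKM is scaled to length, which allows levels of different isotypes to be compared, except that the split within the Tubb2 pair and within the Tuba1 trio is uncertain for the shared sequence given above. The beta tubulin sums and shares are over the 6 listed genes and lack Tubb3, a neuronal beta tubulin not analysed here. Of the RPKM of these 6 genes Tubb5 made up 74.6% in HET and 75.3% in MUT, Tubb4b 12.9% and 16.3%, Tubb2b 5.94% and 3.11%, and Tubb2a 1.39% and 0.730%. The total of the 6 beta tubulin genes was 1393 RPKM in HET and 1432 RPKM in MUT. Of the RPKM of the listed alpha tubulins Tuba1a made up 63.1% in HET and 54.4% in MUT, and Tuba1b 33.8% and 40.6%, of totals of 1677 and 1474 RPKM, and these 2 shares rest on the uncertain split.

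**Figure D3:**
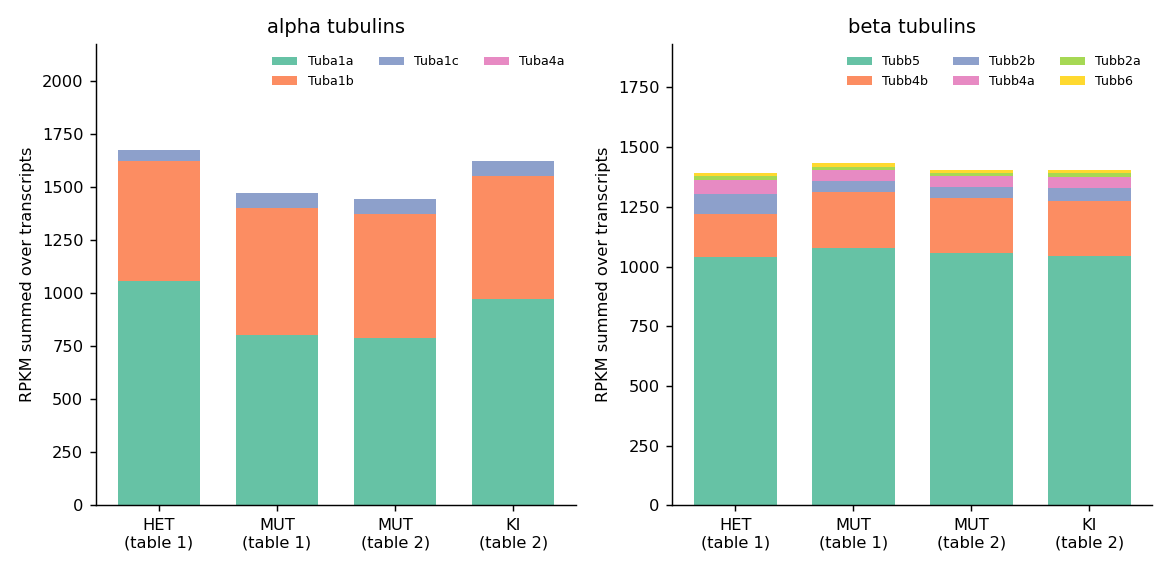
Summed RPKM of the listed alpha tubulin genes (left) and beta tubulin genes (right, without Tubb3), stacked by gene, in each group of each table, with no error bars because only 1 value per group is given. Tubb5 is the largest part of every beta tubulin bar, and the Tuba1a part of the alpha bar is 1057 RPKM in HET and 803 RPKM in MUT.

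Other roles held no calls in MUT against HET. In the gamma tubulin complex, which nucleates microtubules, the 7 listed genes ranged from -0.14 to 0.22, with Tubg1 at 26.7 RPKM in HET and 28.3 RPKM in MUT. The 6 dynactin genes, whose products link dynein to cargo, ranged from -0.18 (Dctn1) to 0.06 (Dctn3). Of cytoplasmic dynein 1 the 4 listed genes ranged from -0.30 (Dync1li1) to 0.05 (Dync1i2). The heavy chain gene Dync1h1 was at 46.4 RPKM in HET and 39.2 RPKM in MUT. The 7 listed ciliary members ranged from -0.11 (Dync2h1) to 0.35 (Kif27, low at 1.06 and 1.36 RPKM), with Kif3a at 58.7 and 63.6 RPKM. Of the 8 other kinesins Kif2a, a depolymerase of neurons and dividing cells, was the most abundant at 148 and 133 RPKM. Kif16b was the highest of them at a ratio of 0.52, from 3.10 to 4.44 RPKM, though its most abundant transcript alone had a ratio of 0.08. Map4 and Map7, which other cells also use, had ratios of -0.13 and 0.25.

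**Figure D4:**
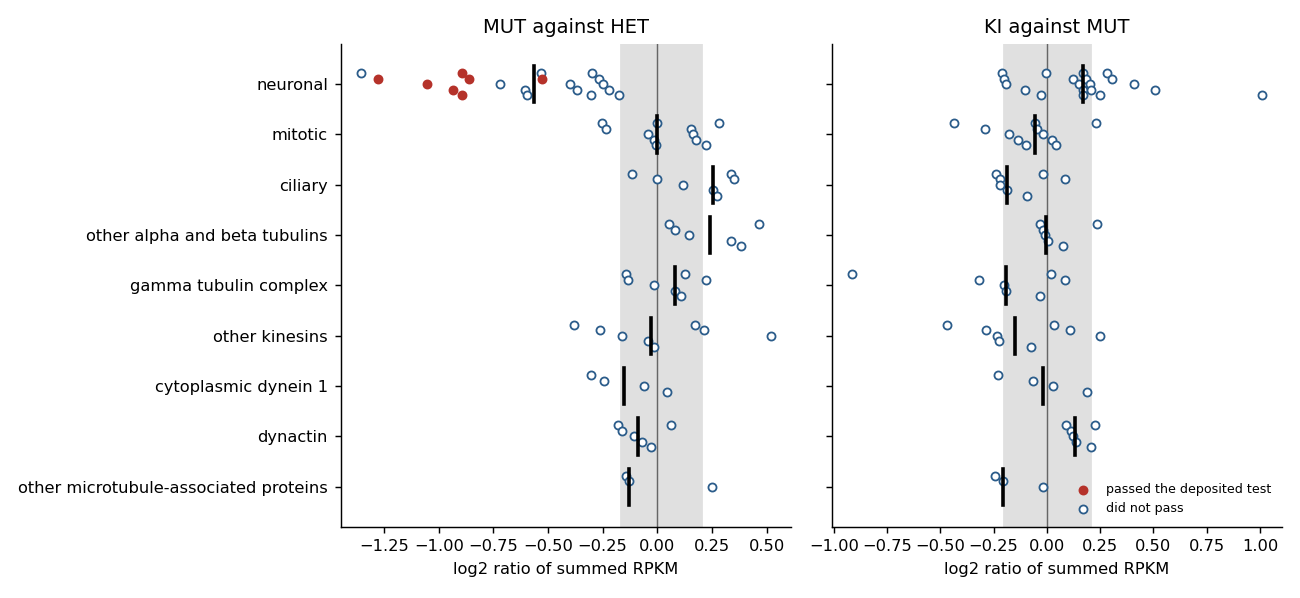
Log2 ratio of summed RPKM for each of the 72 members by role, MUT against HET (left) and KI against MUT (right); filled red points passed the deposited test, black bars are medians, and the grey band spans the lower to the upper quartile of all genes of the table. The 7 filled points all lie in the neuronal row on the left.

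Microtubule genes outside the symbol rule were looked at as a list of 69 genes, of which 66 were listed in the first table. None was called in MUT against HET by Cuffdiff, where 1.34% of all genes were. Of the 66, 11 had a transcript below 0.05 in the unadjusted p of the authors' deposited table, as had 10.9% of all genes. Of these 11, 5 were among the 9 listed other microtubule binders of neurons. The median ratio of those 9 was -0.42, with 7 lower and 2 higher. Crmp1, Dpysl3 and Dpysl5 are named after their values were seen. Crmp1, a collapsin response mediator of growing axons, was at 78.5 and 47.7 RPKM (unadjusted p of 0.0004 and q of 0.0614 in the authors' deposited table). The related genes Dpysl3 and Dpysl5 were at 53.9 and 97.5 RPKM in HET and at 36.1 and 73.0 RPKM in MUT. The 10 spindle proteins had a median of 0.05, and the most abundant, Tacc3, was at 145 RPKM in HET and 186 RPKM in MUT. The 19 listed genes of tubulin folding, modification and severing had a median of 0.02, and the 14 proteins of microtubule ends -0.10. The 14 listed motor partners, a list that also holds the kinesins Cenpe, Kifc1 and Kifc2 outside the symbol rule, had a median of 0.02.

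RefSeq windows of 250 bases before the annotated start (GRCm38.p6) were available for 54 of the 72 members, and for Stmn3, Tubb2a and Map2 of those called. They are shown because these genes fell together and because proneural factors bind E-boxes. Capitals mark the general E-box CANNTG, searched on both strands.
Stmn3: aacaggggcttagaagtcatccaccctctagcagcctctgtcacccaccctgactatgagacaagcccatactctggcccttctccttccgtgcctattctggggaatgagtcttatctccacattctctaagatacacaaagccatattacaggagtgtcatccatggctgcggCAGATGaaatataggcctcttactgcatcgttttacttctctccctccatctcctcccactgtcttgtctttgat
Tubb2a: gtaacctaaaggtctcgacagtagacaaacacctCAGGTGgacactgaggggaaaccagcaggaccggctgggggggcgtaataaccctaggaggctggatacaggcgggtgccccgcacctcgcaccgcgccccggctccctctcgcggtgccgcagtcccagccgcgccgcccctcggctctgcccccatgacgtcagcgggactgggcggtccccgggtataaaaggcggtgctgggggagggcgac
Map2: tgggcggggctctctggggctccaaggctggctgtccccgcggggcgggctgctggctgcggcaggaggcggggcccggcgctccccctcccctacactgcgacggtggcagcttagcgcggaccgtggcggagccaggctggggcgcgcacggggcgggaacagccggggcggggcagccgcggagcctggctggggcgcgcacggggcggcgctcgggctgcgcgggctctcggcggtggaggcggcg
The windows are chr2:181314501-181314750 on the minus strand (Stmn3), chr13:34078009-34078258 on the minus strand (Tubb2a) and chr1:66175079-66175328 on the plus strand (Map2). The Stmn3 window holds 1 CANNTG, of the form CAGATG, the Tubb2a window 1 of another form, and the Map2 window 0. CANNTG was present for 9 of 13 neuronal and 4 of 10 mitotic members with a window, and for 69.3% of all 27025 genes with one. CAGATG, which is contained in CANNTG, was present for 3 of 13 (Stmn3, Map1b and Kif3c) and 1 of 10, beside 16.3% of all genes. These are matches of letters, and the neuronal share of CANNTG, 69.2%, is that of all genes.

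The other comparison sets KI against MUT, which differ by label in the knock-in allele. No member passed the deposited test. None of the 72 members was called by Cuffdiff, where 1.67% of all 11989 genes were called, 0.634% lower and 1.03% higher. There were 12 members with a transcript below 0.05 in the unadjusted p of the authors' deposited table, as had 14.6% of all genes. The backgrounds under the other call rules tried were 2.54% of genes at a q of 0.10, 5.99% at a p of 0.01, 1.56% by the most abundant transcript and 1.81% with at least 5 RPKM. In MUT against HET they were 1.69%, 4.61%, 1.28% and 1.28% in that order. A q above the threshold does not show that the levels were equal. This comparison shares the MUT samples with the one above, and the values stand side by side without a test across them. The MUT values of the members in both tables differed by -0.06 to 0.09 on the log2 scale, with a median of 0.03.

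The neuronal members split. Their median ratio was 0.17, beside -0.00 for all genes, and 14 of 20 had higher summed RPKM, where 49.7% of all genes did. By the most abundant transcript 13 were higher, with Dclk1 and Kif21b turned to lower and Stmn4 to higher. Dcx was the highest of the members, at 18.1 RPKM in MUT and 36.4 RPKM in KI, a ratio of 1.01, with no transcript passing (lowest p = 0.07245, q = 0.783 in the authors' deposited table). Stmn3 was at 22.0 and 31.2 RPKM (p = 0.0024, q = 0.159 in the authors' deposited table). Stmn2 was at 127 and 150.2 RPKM when summed. Its most abundant transcript went from 71.6 to 106 RPKM and missed the threshold narrowly, with p = 0.0004 and q = 0.0506 in the authors' deposited table, and another of its transcripts was listed at 32.7 RPKM in MUT and at 0 in KI. Tubb2a was at 10.3 and 13.6 RPKM, Tubb2b at 43.7 and 53.2 RPKM and Tuba1a at 787 and 973 RPKM, none of them called (q = 0.554, 0.719 and 0.618 in the authors' deposited table).

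Mapt and 5 other neuronal members, Kif5a, Stmn4, Dclk2, Map6 and Tubb4a, had values in KI below those in MUT. Mapt, which had fallen to 2.76 RPKM in the first comparison, was at 2.71 RPKM in MUT and 2.70 RPKM in KI (p = 0.9781 in the authors' deposited table). Kif5a was at 5.49 and 4.74 RPKM, a ratio of -0.21 (p = 0.1847 in the authors' deposited table). Stmn4 was at 24.0 and 21.0 RPKM, Dclk2 at 11.2 and 9.72 RPKM and Map6 at 19.2 and 17.9 RPKM. Above their MUT values, and also not called, Map2 and Map1b were at 32.4 and 217 RPKM in MUT and at 35.3 and 251 RPKM in KI, ratios of 0.12 and 0.21. For Map2 the most abundant transcript alone had a ratio of 0.53 (Cuffdiff p = 0.01035, q = 0.361 in the authors' deposited table). Whether these genes differ from Dcx and Stmn3 in their response was not tested.

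The mitotic kinesins had a median ratio of -0.06, with 8 lower and 3 higher and none called. Kif11 was at 57.0 RPKM in MUT and 57.9 RPKM in KI. Kif14 was the lowest at 11.5 and 8.50 RPKM, a ratio of -0.44 (p = 0.508 in the authors' deposited table), and Kif18a the highest at 20.4 and 23.9 RPKM. Broad tubulins lay close to their MUT values, with Tubb5 at 1058 and 1046 RPKM, Tuba1b at 587 and 583 RPKM and Tubb4b at 229 RPKM in MUT and 229.7 RPKM in KI. Stmn1 was at 1145 and 991 RPKM. All 6 dynactin genes were higher, by 0.09 (Dctn2) to 0.22 (Dctn1), each without passing. Tubg2, the minor gamma tubulin, was at 1.82 RPKM in MUT and 0.963 RPKM in KI, the lowest ratio of the members at -0.91 (p = 0.015, q = 0.417 in the authors' deposited table). Outside the symbol rule 1 of 64 listed microtubule genes was called, a share near the 1.67% of all genes called in this table. It was Tbca, a chaperone that holds beta tubulin during folding, at 409 RPKM in MUT, which rose to 579 RPKM in KI with a q of 0.0463 in the authors' deposited table.

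Several marker sets of other cells differed between KI and MUT. All 7 listed pigment epithelium markers were higher, from a summed 18.7 RPKM in MUT to 88.7 RPKM in KI, with 5 called, and all 5 blood markers, from 33.8 to 126 RPKM, with 2 called. The 6 lens markers were at a summed 49.6 and 116 RPKM with 3 called, and Foxe3 was listed at 0 in MUT. The 5 immediate early genes were lower, from 124 to 28.2 RPKM, with 4 called. Ganglion cell markers were at a summed 362 and 514 RPKM, with Pou4f2 the 1 of 6 called. The 2 listed endothelium markers were lower, from 29.5 to 24.0 RPKM, with none called. The 2 of periocular mesenchyme were higher, from 1.51 to 5.25 RPKM, with 1 called. The 8 retinal markers were at 2495 and 2399 RPKM with none called. In MUT against HET no pigment epithelium, lens or blood marker was called. All 4 listed pigment markers there had an unadjusted Cuffdiff p below 0.05, 3 higher and 1 lower. The titles number the KI samples apart from the HET and MUT samples, so a litter or batch, should the number stand for one, and the knock-in cannot be told apart. The part of these differences in the members' values was not tested.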

How the data were processed

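RNA of 9 samples, 3 per group, was measured by RNA sequencing. Per the submitters' processing notes the authors used Bowtie2, Cufflinks and Cuffdiff against mm10, with tool versions not given in the sources used here. As deposited by the authors, each comparison has 1 RPKM value per transcript and group, with the deposited p-value and q-value of their test, and no values per sample. The deposited q-values equalled Benjamini-Hochberg adjustment over all 27311 and 26586 rows to within 5.26e-07; the smallest p was 5e-05. A row is listed only where 1 group reaches about 1 RPKM (0.906 and 1.04 at the lowest). Depth is unknown.

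Symbols matching the rule gave 170 and 171 transcripts of the 72 genes; 173 and 172 rows with no symbol or a date in its place were left out. RPKM was summed per gene, and log2 ratios were taken without a pseudocount (Python 3.11.15, pandas 2.3.3). The members, role lists, marker lists and the rule for naming genes (every called member, classical neuronal genes, and in each role the most abundant and the most changed) were chosen with earlier results of these data known. Genes said to be named or chosen after their values were seen are outside it. Coding identity came from global alignment of GENCODE M21 sequences (Biopython 1.88). The calling and summing steps were tested on simulated data with known noise, where all transcripts of a changed gene had the same planted ratio. That covers neither the Cuffdiff test nor transcripts that move in opposite directions. Alternatives varied the q threshold, transcript choice, minimum RPKM, pseudocount, centring and the neuronal list.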

Additional observations from a re-analysis of the deposited data

How the results depend on the processing

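The 7 members called in MUT against HET remained 7 at a q of 0.10, when the most abundant transcript alone could call a gene, and with a minimum of 5 RPKM. A looser q can only add calls. The minimum leaves q as it was and could drop none, since Mapt, the lowest, was at 6.69 RPKM in HET. The transcript rule could drop only Stmn2 and Map2, as each of the others has 1 listed transcript. At an unadjusted p of 0.01 or less in the authors' deposited table the members called were 11, with Map6 and Stmn4 lower and Tuba1c and Tubb4b higher. In KI against MUT the count went from 0 to 2 at a q of 0.10 (Map4 and Stmn2) and to 5 at that p. By the most abundant transcript instead of the sum, the neuronal median moved from -0.56 to -0.73 in MUT against HET and from 0.17 to 0.29 in KI against MUT, and the mitotic median in MUT against HET from -0.00 to 0.15; the cause was not tested. The other alternatives moved these medians by less than 0.1. Among single members, the transcript choice moved 21 of 72 ratios by 0.1 or more in MUT against HET and 28 in KI against MUT, and a pseudocount of 1 RPKM moved 5 and 3. Centring takes the median of all genes, 0.0308 and -0.00212, from every ratio, so it could move no ratio or median that far. No called ratio changed sign. A pseudocount cannot change a sign, centring shifts these ratios too little, and the transcript choice could change the sign only for Stmn2 and Map2. Of the uncalled neuronal members, with the most abundant transcript, Dclk1 changed sign in MUT against HET and Dclk1, Kif21b and Stmn4 did in KI against MUT. No replicate could be left out, and no paired analysis was possible because the tables hold 1 pooled value per group.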

Other observations

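Several members had transcripts that moved in opposite directions while their sum stayed close, all chosen after their values were seen. In KI against MUT, 1 transcript of Stmn4 went from 4.88 to 19.0 RPKM and the other from 19.1 to 1.92 RPKM, while the sum was 24.0 and 21.0 RPKM. For Map4 the most abundant transcripts went from 34.4 to 16.3 RPKM and from 17.1 to 31.3 RPKM, where the authors' deposited table gives q as 0.338 and 0.0886, and the sum was 53.9 and 53.1 RPKM. For Dync1h1 they went from 27.0 to 19.7 RPKM and from 8.59 to 17.9 RPKM (in the authors' deposited table q is 0.481 and 0.162). In MUT against HET, a transcript of Dync1i2 was at 26.0 and 12.7 RPKM (p = 0.0189 in the authors' deposited table), while the sum of its 6 transcripts was 78.0 and 80.6 RPKM. None of these transcripts was called, and how reads were split between overlapping transcripts was not tested.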
